A study of Mus musculus with 20 samples.

Results

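Potassium channels are among the most varied ion channels of neurons, and their genes carry symbols that start with Kcn. All genes in the 4 deposited expression tables whose symbol is Kcn, then lower-case letters, then a number were taken as members. The rule uses the symbol alone, but it was chosen with earlier results of these data known. It reaches only genes that passed the authors' filter of each table. The rule found 63 genes of the 14700 listed in any table, of which 61 were listed in all 4 tables and 62 in each single table. Kcna5 was listed only in the table of OGD_WT against N_WT, and Kcnj11 only in the other three. By the family or known role of their products the 63 were 15 pore subunits of the Kv1 to Kv4 groups, 6 electrically silent Kv subunits, 7 of the EAG, ERG and ELK group, 4 KCNQ subunits, 7 of the family of calcium- and sodium-activated channels, 9 inward rectifiers, 6 two-pore-domain leak subunits and 9 accessory subunits.

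The study sequenced total RNA from mouse primary cortical neurons, prepared on embryonic day 15 and cultured for 7 days. Cultures were wild type (WT) or lacked ciRS-7, the circular RNA made from Cdr1as (knockout, KO), and the strain label of both genotypes reads C57BL/6N-Cdr1asem1Nikr. Each was held for 12 h either in normoxia (N), in medium with 25 mM glucose and 0.2 mM pyruvate, or deprived of both oxygen and glucose (OGD), with 1% oxygen and medium lacking these additions. This gave the groups N_WT, OGD_WT, N_KO and OGD_KO with 5 libraries each. An N and an OGD library of the same number shared a genotype label and a batch (1, 2, 3.1, 3.2 or 3.3). Nothing in the labels says whether cultures came from separate litters, and p-values rest on the spread between the libraries of a group. Primary cortical cultures hold some cells other than neurons, and the labels give no purity.

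Potassium channels let potassium leave the cell and so pull the membrane toward rest. Leak and inward rectifier channels set the resting potential, voltage-gated Kv channels end the action potential and set firing rate, and calcium-activated channels shape the pause after a spike. The KCNQ channels carry the M-current, a slow brake on repetitive firing. When oxygen and glucose run out, neurons lose potassium to the outside and depolarise, and channels that sense low ATP open.

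Values are log2 CPM unless stated, the log2 of a gene's reads scaled to a common library size, and differences are on that scale. Recovered depth ranged from 7071506 to 16658618 reads per library. Cdr1as lay at 6.43 to 6.77 in N_WT and at -0.34 to 0.89 in N_KO, and at 5.53 to 6.81 in OGD_WT and -1.11 to 0.78 in OGD_KO, so each library matched its genotype label. A gene was called changed at a Benjamini-Hochberg adjusted p under 0.05 over all genes of the table, by limma. The libraries of batches 1, 2 and 3.2 lay closer to their group means than the others: the SD of their deviations over genes was 0.07 to 0.12, against 0.26 to 0.43 over the libraries of batches 3.1 and 3.3. Main counts are also given without batches 1, 2 and 3.2. Over genes, the SD of a batch's mean deviation was 0.19 to 0.68 of that for independent libraries. The spread within a group, and p-values with it, may therefore differ from that between cultures, which was not tested. Of the markers, those of neurons (10 listed of 10) summed to 4740 to 6182 CPM in N_WT and 2990 to 5741 in OGD_WT, those of astrocytes (9 of 10) to 1156 to 1455 and 1877 to 2334, and those of proliferating cells (10 of 10) to 435 to 575 and 835 to 1442. Of the 10 microglia markers 9 were not listed, Cx3cr1 and Aif1 among them, and of the 10 endothelial and mural markers 8 were not, Pecam1 and Cldn5 among them. In RNA from whole cultures, fewer cells of a type and less RNA per cell cannot be told apart.

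Promoters are shown for 5 members as examples. Kcnq5 had the largest fall among members with a RefSeq promoter entry, and Kcnd3 and Kcnh4 were among the 4 members called higher in both genotypes. The promoters of Kcnc1 and Kcnj16, the others of those 4, are not shown. Kcnj9 and Kcnj10 stand as neighbours on chromosome 1, where Kcnj9 fell in both genotypes and Kcnj10 rose in KO. The sequences are RefSeq's (GRCm38.p6), 250 bases before to 50 after the transcript start, 5′ to 3′ on the gene's strand. Capitals mark ACGTG or GCGTG on either strand (read backwards as CACGT or CACGC), the core letters of sites that hypoxia-inducible factors bind; a match on one strand can overlap one on the other, as within CACGTG.
Kcnq5 (chr1:21961893-21962192, - strand): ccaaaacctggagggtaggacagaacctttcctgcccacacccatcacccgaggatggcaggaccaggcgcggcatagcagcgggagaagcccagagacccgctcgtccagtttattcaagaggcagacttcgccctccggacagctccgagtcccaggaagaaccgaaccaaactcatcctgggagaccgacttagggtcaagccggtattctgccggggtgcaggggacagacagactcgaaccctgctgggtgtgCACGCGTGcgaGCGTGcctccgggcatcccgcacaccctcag
Kcnd3 (chr3:105451640-105451939, + strand): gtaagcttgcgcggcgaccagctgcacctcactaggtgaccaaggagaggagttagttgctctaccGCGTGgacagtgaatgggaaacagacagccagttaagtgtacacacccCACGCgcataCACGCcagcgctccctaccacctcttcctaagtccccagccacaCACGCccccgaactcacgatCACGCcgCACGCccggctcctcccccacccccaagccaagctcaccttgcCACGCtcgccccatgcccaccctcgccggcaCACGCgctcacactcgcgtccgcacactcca
Kcnh4 (chr11:100759729-100760028, - strand): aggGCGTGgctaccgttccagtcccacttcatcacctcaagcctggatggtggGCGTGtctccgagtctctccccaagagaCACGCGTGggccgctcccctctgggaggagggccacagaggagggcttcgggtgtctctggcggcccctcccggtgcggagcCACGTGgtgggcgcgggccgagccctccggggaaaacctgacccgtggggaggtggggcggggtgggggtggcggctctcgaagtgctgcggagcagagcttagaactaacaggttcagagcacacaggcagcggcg
Kcnj9 (chr1:172329273-172329572, - strand): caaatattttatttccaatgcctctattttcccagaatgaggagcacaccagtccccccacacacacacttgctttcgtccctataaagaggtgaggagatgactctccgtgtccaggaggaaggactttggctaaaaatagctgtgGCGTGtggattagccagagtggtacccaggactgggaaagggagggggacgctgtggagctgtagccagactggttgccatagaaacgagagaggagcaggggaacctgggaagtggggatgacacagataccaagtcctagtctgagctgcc
Kcnj10 (chr1:172340960-172341259, + strand): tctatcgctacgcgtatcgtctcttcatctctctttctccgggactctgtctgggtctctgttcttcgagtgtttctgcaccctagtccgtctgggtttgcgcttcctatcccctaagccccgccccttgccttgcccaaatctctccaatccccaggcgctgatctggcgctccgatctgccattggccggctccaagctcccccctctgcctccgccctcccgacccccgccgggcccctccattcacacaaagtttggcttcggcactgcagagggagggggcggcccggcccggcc

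The Kcnd3 window held 8 matches, that of Kcnh4 6, that of Kcnq5 3, that of Kcnj9 1 and that of Kcnj10 0. Kcnq5 has another RefSeq start, whose window held 0. Across the family, 44 of 63 members had an entry, with 66 promoters, and 39.4% of these held either motif. The share was 62.0% over 13374 promoters of genes in the tables and 43.8% over 32851 RefSeq promoters of this length. Promoters on chromosome 18, where Kcnn2 lies, were left out of all these promoter counts. By gene, 3 of 4 members called higher in both genotypes had a match, 9 of 18 called lower in both and 10 of the other 22. Over 10390 genes of the tables with an entry the share was 68.5%. These letters are a description of the windows and say nothing about binding. The palindrome TGACGTCA, the cAMP response element, was in 0 of the 66, against 3.05% of the promoters of all genes in the tables. At a share this low, 0 of 66 says little.

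Under OGD, potassium channel transcripts were mostly lower, and the falls were larger than the rises. In WT, 36 of 62 members were called, 30 lower and 6 higher, where 44.3% of all genes were called (22.8% lower and 21.6% higher). In KO, 36 of 62 were called, 31 lower and 5 higher, where 40.9% of all genes were called (19.9% lower and 21% higher). A fall of 1 or more was called for 12 members in WT and 11 in KO, against 4.76% and 3.88% of all genes, and 0 members rose by as much, against 4.76% and 4.78%. The median difference over members was -0.41 in both genotypes, against -0.03 over all genes in WT and 0.00 in KO. Values of the 5 OGD and 5 N libraries did not overlap for 22 members in WT and 24 in KO, where 26.9% and 25.8% of all genes did not.

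Summed over members, the 5 N_WT libraries held 1796, 1776, 1964, 2148 and 1986 CPM and the 5 OGD_WT libraries 1439, 1302, 1420, 1573 and 1526. The N_KO libraries held 1865, 1796, 1845, 1827 and 2109 CPM, and the OGD_KO libraries 1421, 1476, 1387, 1397 and 1337. In both genotypes every OGD library was below every N library. Over the same contrasts the 10 neuron markers had a median of -0.48 in WT (5 lower, 0 higher) and -0.60 in KO (6 lower, 0 higher), and the 9 astrocyte markers 0.73 (6 higher, 1 lower) and 0.68 (5 higher, 0 lower); their part in the members' changes was not tested.

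The split into higher and lower depends on how libraries are scaled. With scaling to total reads, an alternative chosen after seeing the data, the median of all genes moved to -0.30 in WT and -0.28 in KO, and the members' calls became 1 higher and 41 lower in WT and 0 higher and 39 lower in KO. All 30 and 31 lower calls held under it, 1 of 6 higher calls in WT did (Kcnh4) and 0 of 5 in KO. In cultures of batches 3.1 and 3.3 alone, with 3 cultures a genotype, 14 of the 30 falls and 1 of the 6 rises (Kcnh4) were still called in WT, and 17 of the 31 falls and 0 of the 5 rises in KO. The members called lower under every alternative in both genotypes were 11: Kcnv1, Kcnq5, Kcnj3, Kcnk3, Kcnj9, Kcnmb2, Kcnc4, Kcng1, Kcns1, Kcna6 and Kcnj12. Of these, Kcnmb2, Kcns1 and Kcnj12 rested on few reads under OGD, 14 to 21, 7 to 12 and 5 to 16 in OGD_WT and 5 to 25, 6 to 15 and 8 to 13 in OGD_KO.

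**Figure D1:**
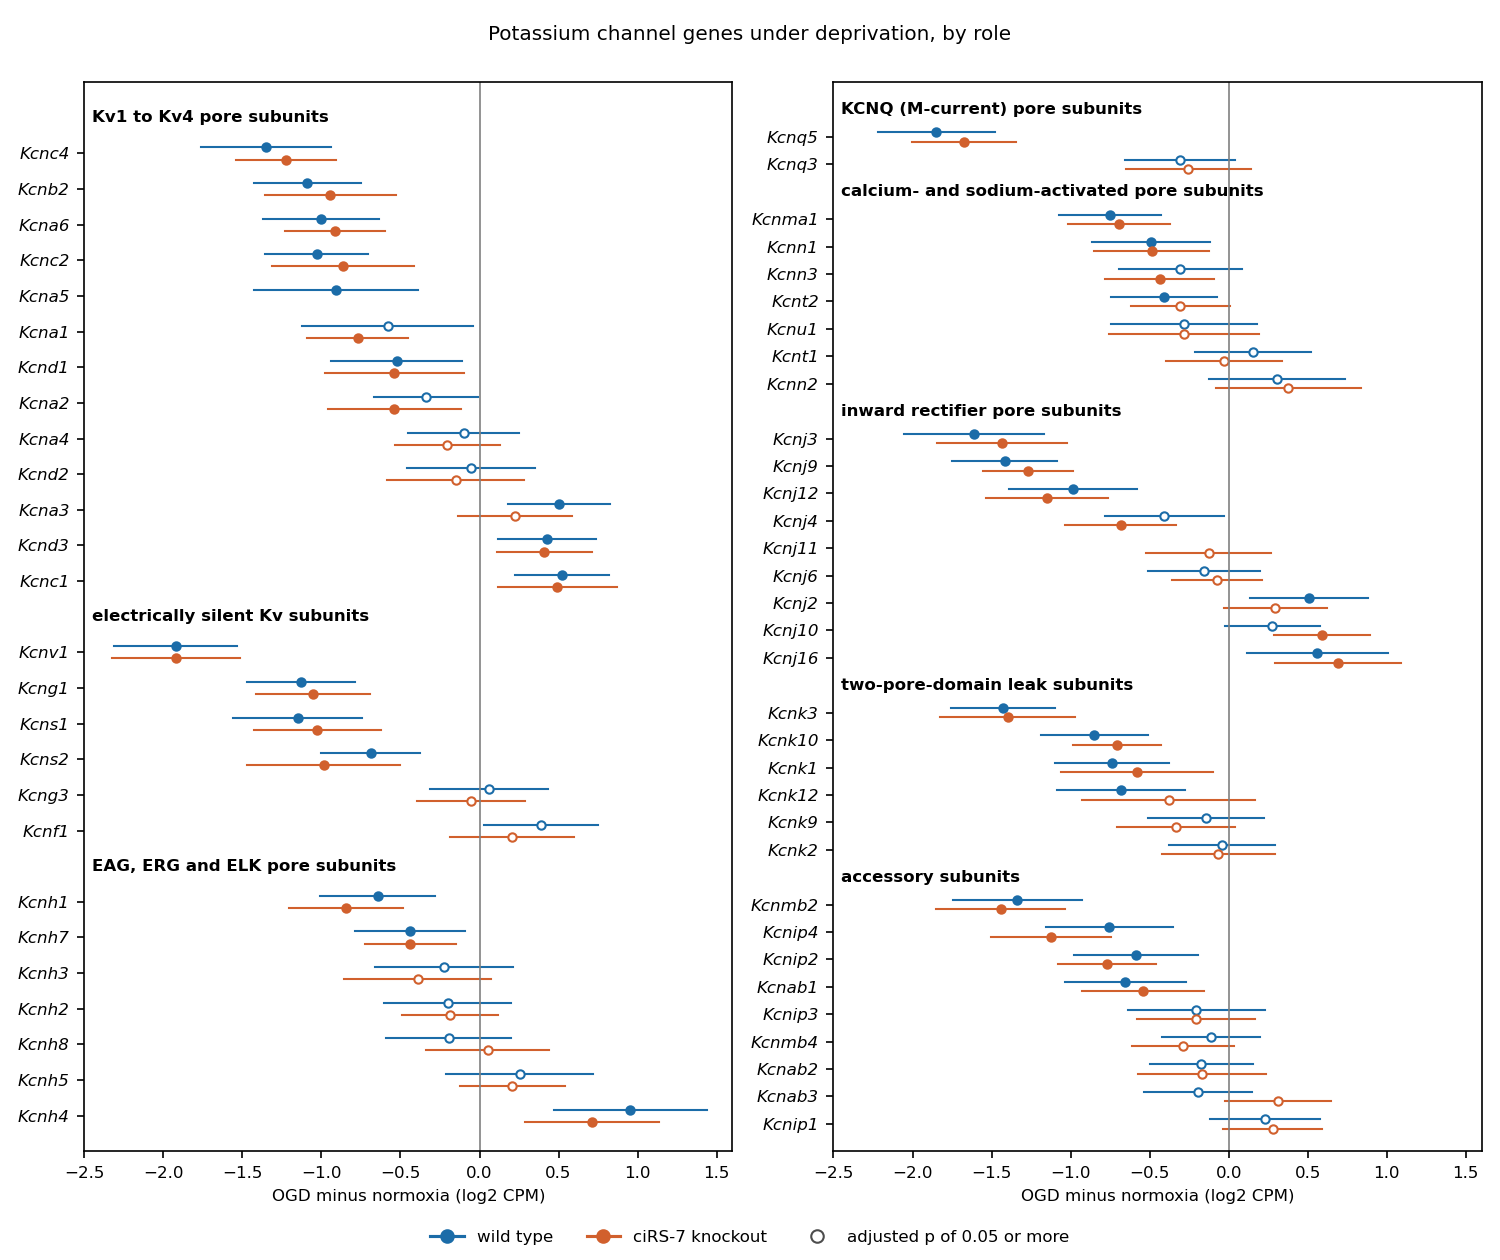
Difference between OGD and normoxia in log2 CPM (horizontal axis) for 59 of the members by role, as the limma estimate with its 95% interval, in wild type (blue) and ciRS-7 knockout (orange); filled points passed adjusted p under 0.05. Most filled points lie left of 0, down to -1.92 for Kcnv1, and the filled points right of 0 are Kcna3, Kcnd3, Kcnc1, Kcnj2, Kcnj10, Kcnj16 and Kcnh4.

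Among the Kv1 to Kv4 pore subunits, which form the voltage-gated channels proper, 7 of 15 were called lower and 3 higher in WT, and 8 of 14 lower and 2 higher in KO. Over all genes 22.8% were called lower and 21.6% higher in WT, and 19.9% and 21% in KO. The Kv3 subfamily, whose channels open and close fast enough to let neurons fire at high rates, moved in both directions. Kcnc4 stood at 3.08, 2.88, 3.17, 3.47 and 2.57 in normoxia and 1.5, 1.26, 1.49, 2.08 and 2.09 under OGD in WT. Its difference was -1.35 (SE 0.20, adjusted p = 1.56e-05, n = 5 against 5) in WT and -1.22 (SE 0.15, adjusted p = 5.95e-06, n = 5 against 5) in KO, with no overlap between N and OGD libraries in either genotype. Kcnc2 fell by 1.03 in WT (adjusted p = 2.43e-05) and by 0.86 in KO (adjusted p = 0.0036). Their relative Kcnc1 was higher in both genotypes.

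Kcnc1 stood at 6.32, 6.24, 6.17, 6.06 and 6.45 in normoxia and 6.75, 7.08, 6.82, 6.54 and 6.64 under OGD in WT, where every OGD library was above every N library. The difference was 0.52 (SE 0.14, adjusted p = 0.00546, n = 5 against 5). In KO it was 0.49 (SE 0.18, adjusted p = 0.0346, n = 5 against 5), the groups overlapped, 4 of 5 cultures were higher, and with the culture number as a block the adjusted p was 0.0949. Scaled to total reads, the difference was 0.24, adjusted p = 0.189 in WT and 0.20, adjusted p = 0.347 in KO. The log2 difference between Kcnc4 and Kcnc1 within a library was -3.88 to -2.58 in normoxia and -5.82 to -4.46 under OGD in WT, and -3.23 to -3.04 in normoxia and -5.30 to -4.33 under OGD in KO. Every OGD library had a lower ratio of Kcnc4 to Kcnc1 than every N library of its genotype. The Kcnc1 call in KO was lost without any 1 of OGD_KO replicate 2, 3, 5 or N_KO replicate 1, 2, 3, 5 (adjusted p up to 0.0827). These pairs of genes, here and further on, were chosen after their values were seen, and carry no test.

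Kcnb2 encodes a Kv2 subunit, part of the delayed rectifier current of cortical neurons. Kcnb2 stood at 5.83, 5.37, 5.70, 6.00 and 5.84 in normoxia and 4.42, 4.68, 4.74, 4.36 and 5.09 under OGD in WT and at 5.84, 5.45, 5.75, 5.62 and 5.51 in normoxia and 4.63, 4.99, 4.54, 3.96 and 5.33 under OGD in KO. N and OGD libraries did not overlap in either genotype, and the difference was -1.09 (SE 0.16, adjusted p = 1.83e-05, n = 5 against 5) in WT and -0.94 (SE 0.20, adjusted p = 0.00095, n = 5 against 5) in KO. In batches 3.1 and 3.3 alone the KO value was -0.77, adjusted p = 0.0685.

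Of the Kv1 genes, whose channels sit on axons and hold down excitability near threshold, Kcna6 fell by 1.0 in WT and 0.91 in KO (adjusted p = 0.000108 and 0.000114). N and OGD libraries of Kcna6 did not overlap, at 5.87 to 6.16 in normoxia and 4.30 to 5.40 under OGD in WT and 5.67 to 6.23 in normoxia and 4.78 to 5.42 under OGD in KO. Kcna1 was -0.77 (SE 0.15, adjusted p = 0.000578, n = 5 against 5) in KO and -0.58 in WT, where it missed the threshold (adjusted p = 0.0743) and the OGD libraries spread over 3.33 to 5.29. Kcna2 was -0.34 in WT and -0.54 in KO, with adjusted p = 0.0893 and 0.038; with the culture block these became 0.0493 and 0.0896, and the KO call was lost without any 1 of OGD_KO replicate 1, 5 or N_KO replicate 1, 3, 4, 5 (adjusted p up to 0.0931). Kcna5 was lower by 0.91 in WT (adjusted p = 0.00546) at low counts. Kcna3, on chromosome 3 beside Kcna2 with a gap of 63.1 kb, rose by 0.50 in WT (adjusted p = 0.0114) and was 0.22 in KO (adjusted p = 0.31). Scaled to total reads the Kcna3 value was 0.24, adjusted p = 0.229 in WT and -0.05 in KO. Kcna4 differed by -0.10 in WT and -0.20 in KO and was not called.

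The Kv4 genes encode the A-type channels of dendrites. Kcnd3 stood at 6.79, 6.96, 6.58, 6.44 and 6.34 in normoxia and 6.93, 7.20, 7.14, 6.90 and 7.08 under OGD in WT and at 6.64, 6.60, 6.61, 6.83 and 6.53 in normoxia and 7.02, 6.77, 7.02, 7.37 and 7.06 under OGD in KO. Every culture moved up in both genotypes, although the groups overlapped. The difference was 0.43 (SE 0.15, adjusted p = 0.0232, n = 5 against 5) in WT and 0.41 (SE 0.14, adjusted p = 0.0288, n = 5 against 5) in KO, and on total-read scaling 0.15, adjusted p = 0.45 and 0.12, adjusted p = 0.549. In batches 3.1 and 3.3 alone it was 0.48, adjusted p = 0.317 in WT and 0.41, adjusted p = 0.423 in KO. The Kcnd3 call was lost without any 1 of OGD_WT replicate 3 or N_WT replicate 3, 4, 5 (adjusted p up to 0.0669) in WT, and lost without any 1 of OGD_KO replicate 1, 3, 4 or N_KO replicate 1, 3, 5 (adjusted p up to 0.0719) in KO. Kcnd2 differed by -0.05 in WT and -0.15 in KO (adjusted p = 0.841 and 0.585), with a 95% interval of -0.46 to 0.35 in WT. Kcnd1, the least abundant of the group, fell by 0.52 and 0.54 (adjusted p = 0.037 and 0.0468), and with the culture block neither passed (adjusted p = 0.0655 and 0.078); its call was lost without any 1 of OGD_WT replicate 1, 2, 3, 4 or N_WT replicate 1, 2, 3 (adjusted p up to 0.101) in WT, and lost without any 1 of OGD_KO replicate 1, 2, 3, 4 or N_KO replicate 1, 3, 4, 5 (adjusted p up to 0.123) in KO.

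The electrically silent subunits form no channel alone but join Kv2 subunits and change their gating. Of 6, 4 were called lower in each genotype and 0 higher, with medians of -0.91 in WT and -1.01 in KO. The share of all genes called lower was 22.8% in WT and 19.9% in KO. Kcnv1, known from cortex and hippocampus, had the largest fall of all members. It stood at 4.43, 4.50, 4.62, 4.67 and 4.28 in normoxia and 2.42, 2.03, 2.52, 2.59 and 3.33 under OGD in WT, and at 4.69, 4.56, 4.76, 4.10 and 4.83 in normoxia and 2.90, 2.67, 2.54, 3.16 and 2.05 under OGD in KO. The highest OGD library was below the lowest N library in both genotypes. The difference was -1.92 (SE 0.19, adjusted p = 9.14e-08, n = 5 against 5) in WT, 3.79-fold lower, and -1.92 (SE 0.19, adjusted p = 5.89e-07, n = 5 against 5) in KO. In batches 3.1 and 3.3 alone it was -1.84, adjusted p = 2.11e-07 in WT and -1.87, adjusted p = 8.21e-08 in KO.

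Kcng1 was lower by 1.13 in WT and 1.05 in KO (adjusted p = 1.46e-05 and 0.000108), with libraries at 3.25 to 3.6 in normoxia and 1.90 to 2.64 under OGD in WT. Kcns2 fell by 0.69 and 0.98 (adjusted p = 0.000891 and 0.00232), and the OGD_KO libraries ranged over 1.29 to 2.69. Kcns1, of low abundance, fell by 1.15 and 1.03 (adjusted p = 7.66e-05 and 0.000369). None of these 4 overlapped between N and OGD libraries in either genotype. Kcnf1 was 0.39 in WT and 0.21 in KO and Kcng3 0.06 in WT and -0.05 in KO, and neither was called.

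**Figure D2:**
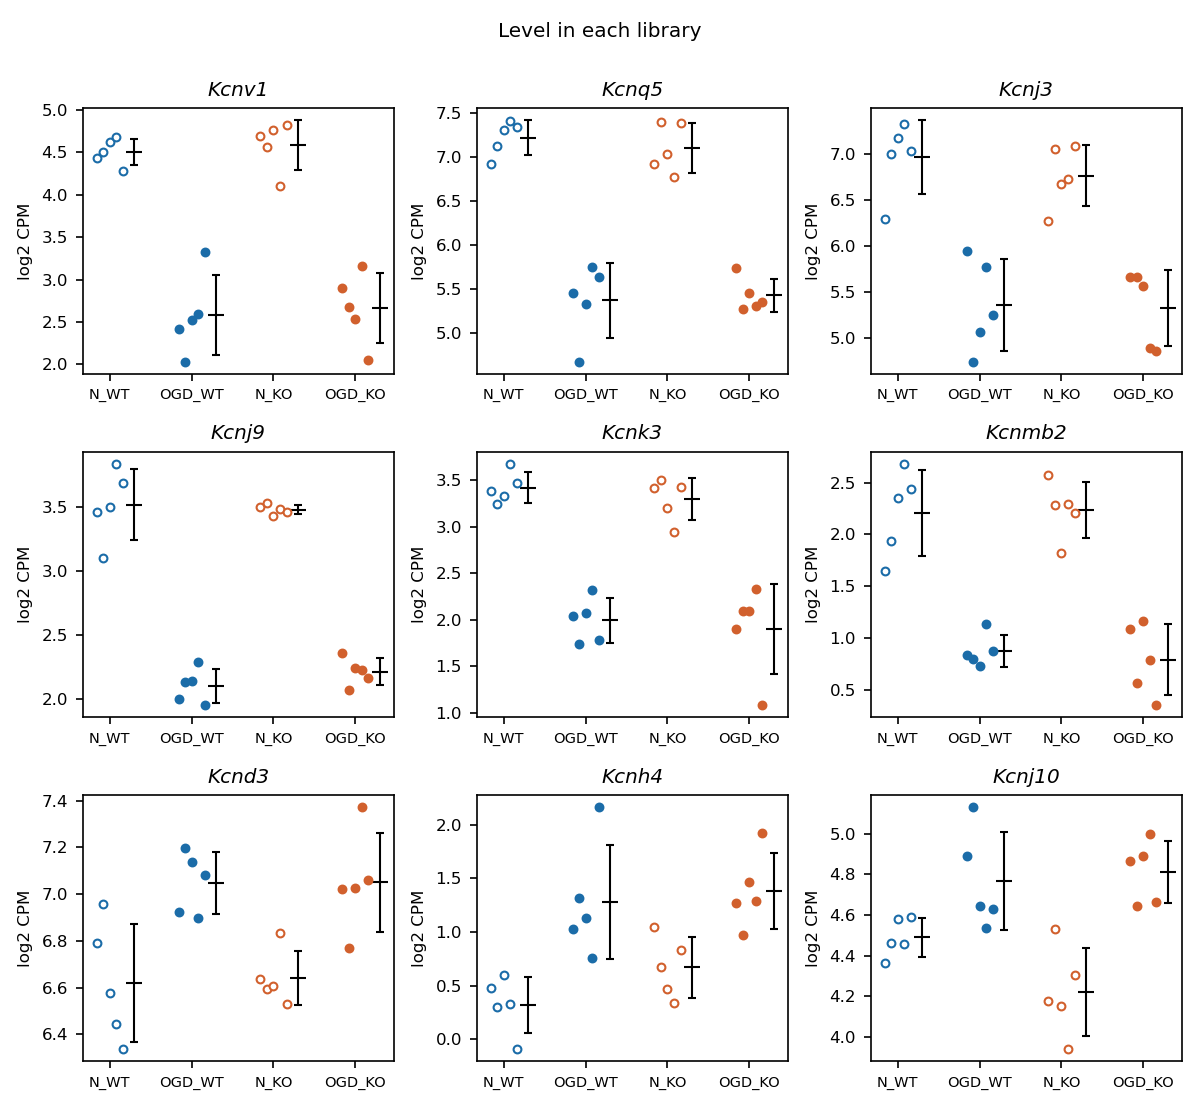
Level of 9 members in each library, in log2 CPM (vertical axis) by group (horizontal axis), with open circles for normoxia and filled circles for OGD; the black bar is the mean ± SD of the 5 libraries. WT and KO values come from 2 tables that were scaled separately. In the upper 6 panels (Kcnv1, Kcnq5, Kcnj3, Kcnj9, Kcnk3 and Kcnmb2) every OGD library lies below every N library of its genotype, and in the lower 3 (Kcnd3, Kcnh4 and Kcnj10) the OGD means lie higher.

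Kcnq5, one of the pore subunits of the M-current, stood at 6.92, 7.12, 7.31, 7.4 and 7.34 in normoxia and 5.45, 4.67, 5.33, 5.75 and 5.63 under OGD in WT, and at 6.92, 7.4, 7.03, 6.76 and 7.38 in normoxia and 5.74, 5.27, 5.45, 5.31 and 5.35 under OGD in KO. No library overlapped between the treatments. The fall was -1.85 (SE 0.18, adjusted p = 7.37e-08, n = 5 against 5) in WT, 3.61-fold, and -1.67 (SE 0.16, adjusted p = 3e-07, n = 5 against 5) in KO, 3.19-fold. Without batches 1, 2 and 3.2 it was -1.94, adjusted p = 4.98e-08 in WT and -1.87, adjusted p = 3.27e-07 in KO.

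Kcnq3, another M-channel subunit, was -0.31 in WT and -0.25 in KO (adjusted p = 0.14 and 0.293), with libraries at 6.25 to 6.93 in normoxia and 5.70 to 6.57 under OGD in WT. Within a library, Kcnq5 minus Kcnq3 was 0.47 to 0.93 in normoxia and -1.03 to -0.58 under OGD in WT, and 0.35 to 1.46 in normoxia and -1.44 to -0.45 under OGD in KO. The difference did not overlap between the treatments in either genotype.

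In the group of EAG, ERG and ELK subunits, slow voltage-gated channels that hold the membrane back near threshold, 2 of 7 were called lower and 1 higher in each genotype. That is 42.9% called, near the 44.3% of all genes called in WT and 40.9% in KO. Kcnh4, an ELK subunit, was the member with the largest rise. It stood at 0.48, 0.30, 0.60, 0.33 and -0.09 in normoxia and 1.03, 1.31, 1.13, 0.76 and 2.16 under OGD in WT, with no overlap, and at 1.05, 0.67, 0.47, 0.33 and 0.83 in normoxia and 1.27, 0.97, 1.46, 1.28 and 1.93 under OGD in KO, where the groups overlapped but all 5 cultures were higher. The difference was 0.95 (SE 0.23, adjusted p = 0.00232, n = 5 against 5) in WT and 0.71 (SE 0.20, adjusted p = 0.00915, n = 5 against 5) in KO. On total-read scaling it was 0.86, adjusted p = 0.0113 in WT and 0.55, adjusted p = 0.0558 in KO. The level was low, and the reads ranged from 4 to 40 over the 10 WT libraries and from 8 to 32 over the 10 KO libraries. Kcnh1, an EAG subunit, fell by 0.64 in WT and 0.85 in KO (adjusted p = 0.0051 and 0.000741). Kcnh7, an ERG subunit and the most abundant of the 7 per length, fell by 0.44 and 0.44 (adjusted p = 0.039 and 0.0172); the WT call was lost without any 1 of OGD_WT replicate 2, 3, 5 or N_WT replicate 3, 4, 5 (adjusted p up to 0.109). Kcnh2, Kcnh3, Kcnh5 and Kcnh8 were not called in either genotype, with differences between -0.39 and 0.25.

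Of the family of calcium- and sodium-activated channels, 3 of 7 were called lower in each genotype and 0 higher. That is 42.9% called, where 44.3% of all genes were called in WT (22.8% lower) and 40.9% in KO (19.9% lower). Kcnma1, the pore of the large-conductance BK channel, fell by 0.75 in WT and 0.69 in KO (adjusted p = 0.000536 and 0.00159). Its libraries did not overlap, at 6.39 to 7.04 in normoxia and 5.67 to 6.35 under OGD in WT and 6.41 to 6.99 in normoxia and 5.68 to 6.33 under OGD in KO. With batches 3.1 and 3.3 alone its difference was -0.76, adjusted p = 0.0726 in WT and -0.70, adjusted p = 0.117 in KO. Of the small-conductance SK genes, which shape the pause after a spike, Kcnn1 fell by 0.49 in both genotypes (adjusted p = 0.0303 and 0.0314), and with the culture block adjusted p was 0.0617 and 0.0796. The Kcnn1 call was lost without any 1 of OGD_WT replicate 3, 5 or N_WT replicate 1, 3, 4 (adjusted p up to 0.085) in WT, and lost without any 1 of OGD_KO replicate 1, 3, 4, 5 or N_KO replicate 1, 3, 5 (adjusted p up to 0.0747) in KO. Kcnn3 was -0.31 in WT and -0.44 in KO (adjusted p = 0.193 and 0.0388, the latter 0.0529 with the block), and Kcnn2 0.31 in WT and 0.38 in KO, not called; the Kcnn3 call in KO was lost without any 1 of OGD_KO replicate 1, 3, 4, 5 or N_KO replicate 1, 2, 3, 5 (adjusted p up to 0.0894). Of the sodium-activated pair, Kcnt2 fell by 0.41 in WT (adjusted p = 0.0437) and was -0.31 in KO (adjusted p = 0.107), and Kcnt1 was 0.15 in WT and -0.03 in KO; the Kcnt2 call in WT was lost without any 1 of OGD_WT replicate 1, 2, 3 or N_WT replicate 3, 4, 5 (adjusted p up to 0.112). Kcnu1 was -0.29 in WT and -0.28 in KO and not called.

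Inward rectifiers carry potassium near rest, and their genes went in both directions: 3 of 8 were called lower and 2 higher in WT, and 4 of 9 lower and 2 higher in KO. Among all genes 22.8% were called lower and 21.6% higher in WT, and 19.9% and 21% in KO. Kcnj3, Kcnj6 and Kcnj9 encode the GIRK subunits that G-protein-coupled receptors open. Kcnj3, the most abundant member per length in normoxia, stood at 6.29, 7.00, 7.18, 7.33 and 7.04 in normoxia and 5.95, 4.74, 5.07, 5.78 and 5.25 under OGD in WT, and at 6.27, 7.06, 6.67, 6.73 and 7.09 in normoxia and 5.66, 5.66, 5.57, 4.89 and 4.86 under OGD in KO. Every OGD library was below every N library. The fall was -1.61 (SE 0.21, adjusted p = 4.4e-06, n = 5 against 5) in WT, 3.05-fold, and -1.44 (SE 0.20, adjusted p = 1.77e-05, n = 5 against 5) in KO, 2.71-fold. Over batches 3.1 and 3.3 only, the difference was -1.87, adjusted p = 1.58e-07 in WT and -1.82, adjusted p = 6.01e-07 in KO.

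Kcnj9 stood at 3.46, 3.10, 3.50, 3.84 and 3.69 in normoxia and 2.00, 2.13, 2.14, 2.28 and 1.95 under OGD in WT, and at 3.50, 3.53, 3.43, 3.49 and 3.46 in normoxia and 2.36, 2.07, 2.24, 2.23 and 2.16 under OGD in KO, again without overlap. The fall was -1.42 (SE 0.16, adjusted p = 6.8e-07, n = 5 against 5) in WT and -1.27 (SE 0.14, adjusted p = 1.3e-06, n = 5 against 5) in KO. The remaining GIRK gene, Kcnj6, was -0.16 in WT and -0.08 in KO (adjusted p = 0.473 and 0.685). Within a library, Kcnj9 minus Kcnj6 was -0.44 to 0.21 in normoxia and -1.62 to -0.72 under OGD in WT, and 0.00 to 0.27 in normoxia and -1.30 to -0.95 under OGD in KO. So 2 of the 3 GIRK transcripts fell, and the ratio of Kcnj9 to Kcnj6 was lower under OGD in both genotypes without overlap.

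Kcnj9 lies on the minus strand of chromosome 1 (172320501 to 172329318) and Kcnj10 on the plus strand (172341210 to 172374085), start to start, with a gap of 11.9 kb in GRCm38; their promoters are those printed above. Kcnj10 encodes a potassium-buffering inward rectifier best known from glia. It stood at 4.36, 4.46, 4.58, 4.46 and 4.59 in normoxia and 4.89, 5.13, 4.65, 4.54 and 4.63 under OGD in WT, and at 4.18, 4.53, 4.15, 3.94 and 4.30 in normoxia and 4.87, 4.64, 4.89, 5.00 and 4.66 under OGD in KO. All 5 cultures of each genotype were higher under OGD, and in KO the groups did not overlap. The difference was 0.28 (SE 0.15, adjusted p = 0.129, n = 5 against 5) in WT, not called, and 0.59 (SE 0.14, adjusted p = 0.00317, n = 5 against 5) in KO. On total-read scaling the KO value was 0.31, adjusted p = 0.129, and in batches 3.1 and 3.3 alone 0.51, adjusted p = 0.265. Kcnj9 minus Kcnj10 within a library was -1.36 to -0.62 in normoxia and -3.00 to -2.25 under OGD in WT, and -1.0 to -0.45 in normoxia and -2.77 to -2.5 under OGD in KO.

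Kcnj16, whose product pairs with that of Kcnj10, stood at 1.20, 1.71, 1.77, 2.40 and 1.84 in normoxia and 2.02, 1.85, 2.5, 2.56 and 2.79 under OGD in WT. In KO 4 of 5 cultures and in WT all 5 were higher, and in both genotypes the groups overlapped. It rose by 0.56 (SE 0.21, adjusted p = 0.0388, n = 5 against 5) in WT and 0.69 (SE 0.19, adjusted p = 0.00745, n = 5 against 5) in KO. On total-read scaling the values were 0.33, adjusted p = 0.226 and 0.45, adjusted p = 0.0832. Kcnj2, 38.2 kb from Kcnj16 on chromosome 11, rose by 0.51 in WT (adjusted p = 0.0252) and was 0.30 in KO (adjusted p = 0.132); on total-read scaling the WT value was 0.24, adjusted p = 0.252. In WT the call of Kcnj16 was lost without any 1 of OGD_WT replicate 3, 4, 5 or N_WT replicate 1, 2, 3 (adjusted p up to 0.13), and that of Kcnj2 lost without any 1 of OGD_WT replicate 3, 4 or N_WT replicate 1, 2, 3 (adjusted p up to 0.0783). Over the same contrasts the astrocyte markers split: Slc1a3, Gja1, Fgfr3, Sox9 and Aldoc rose in both genotypes, by 0.73 to 1.08 in WT and 0.68 to 1.02 in KO, and Aldh1l1 rose by 0.60 in WT and was 0.57 in KO (adjusted p = 0.115). Gfap fell by 0.47 in WT (adjusted p = 0.0434) and was -0.34 in KO (adjusted p = 0.123), Slc1a2 was -0.03 and 0.02, and Aqp4 was 0.05 and 0.01. The part of glial cells in the rise of Kcnj10 and Kcnj16 was not tested.

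Kcnj12, a strong inward rectifier, fell by 0.98 in WT and 1.15 in KO (adjusted p = 0.00036 and 8.38e-05), at low levels (1.26 to 1.6 in normoxia and 0.07 to 1.03 under OGD in WT) without overlap. Kcnj4 was -0.41 in WT and -0.68 in KO (adjusted p = 0.0718 and 0.00339). Of the ATP-sensitive channels, which open when ATP falls, Kcnj11 was listed for KO at 0.21 to 0.79 in normoxia and 0.14 to 0.48 under OGD, a difference of -0.13 (SE 0.19, adjusted p = 0.621). Its usual partner in neurons, Abcc8, was 0.15 in WT and 0.36 in KO (adjusted p = 0.497 and 0.12). Kcnj8 was in none of the 4 tables and was not analysed here.

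The two-pore-domain genes encode leak channels that set the resting potential. All 6 had negative differences, of which 4 were called in WT and 3 in KO, where 22.8% and 19.9% of all genes were called lower. Kcnk3, an acid-sensitive leak channel, stood at 3.39, 3.24, 3.33, 3.68 and 3.47 in normoxia and 2.04, 1.74, 2.08, 2.32 and 1.79 under OGD in WT, and at 3.42, 3.50, 3.21, 2.94 and 3.43 in normoxia and 1.90, 2.10, 2.10, 2.33 and 1.08 under OGD in KO. The groups did not overlap, and the fall was -1.43 (SE 0.16, adjusted p = 5.52e-07, n = 5 against 5) in WT and -1.40 (SE 0.20, adjusted p = 3.39e-05, n = 5 against 5) in KO. The Kcnk3 gene overlaps one on the other strand over 0.45 kb, and the strand setting of the counting is not given in the sources used here. Its close relative Kcnk9 was -0.14 in WT and -0.33 in KO (adjusted p = 0.535 and 0.143). Kcnk3 minus Kcnk9 within a library was 0.46 to 0.86 in normoxia and -1.05 to -0.46 under OGD in WT, and 0.02 to 0.82 in normoxia and -1.92 to 0.11 under OGD in KO, where the ranges overlapped.

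Kcnk10 and Kcnk2 encode stretch- and lipid-sensitive channels. Kcnk10 fell by 0.85 in WT and 0.71 in KO (adjusted p = 0.00025 and 0.000373), without overlap, at 5.67 to 6.45 in normoxia and 4.74 to 5.25 under OGD in WT and 5.63 to 6.03 in normoxia and 4.97 to 5.19 under OGD in KO. Restricted to batches 3.1 and 3.3, it was -1.02, adjusted p = 0.00995 in WT and -0.78, adjusted p = 0.0669 in KO. Kcnk2, studied as a protective channel in ischaemia, differed by -0.04 in WT and -0.07 in KO, with 95% intervals of -0.38 to 0.29 and -0.42 to 0.29. The log2 difference of Kcnk10 and Kcnk2 was 0.07 to 0.92 in normoxia and -0.70 to -0.05 under OGD in WT, and 0.35 to 0.56 in normoxia and -0.78 to 0.22 under OGD in KO, without overlap. Kcnk1 fell by 0.74 in WT (adjusted p = 0.00162) and 0.58 in KO (adjusted p = 0.0492, and 0.124 with the culture block), where the call was lost without any 1 of OGD_KO replicate 2, 3, 4, 5 or N_KO replicate 1, 3, 5 (adjusted p up to 0.144). Kcnk12 was -0.68 in WT and -0.38 in KO (adjusted p = 0.0074 and 0.255).

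Accessory subunits bind the pores and tune them, and 4 of 9 were called lower in each genotype and 0 higher. That is 44.4% called, where 44.3% of all genes were called in WT (22.8% lower) and 40.9% in KO (19.9% lower). Kcnmb2, an inactivating partner of the BK channel, stood at 1.65, 1.93, 2.35, 2.68 and 2.44 in normoxia and 0.83, 0.79, 0.73, 1.14 and 0.87 under OGD in WT, and at 2.57, 2.28, 1.82, 2.29 and 2.20 in normoxia and 1.09, 0.56, 1.17, 0.79 and 0.35 under OGD in KO. N and OGD libraries did not overlap. The fall was -1.34 (SE 0.20, adjusted p = 1.58e-05, n = 5 against 5) in WT and -1.44 (SE 0.20, adjusted p = 1.55e-05, n = 5 against 5) in KO. Its relative Kcnmb4, the main BK partner in neurons, was -0.11 in WT and -0.29 in KO (adjusted p = 0.568 and 0.145), and its gene overlaps the antisense gene Kcnmb4os2 over 0.716 kb. Kcnmb2 minus Kcnmb4 was -3.75 to -2.49 in normoxia and -4.58 to -3.61 under OGD in WT, where the ranges overlapped, and -3.41 to -2.59 in normoxia and -4.75 to -3.66 under OGD in KO.

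Kcnip4 and Kcnip2, calcium-binding partners of Kv4 pores, fell. For Kcnip4 the difference was -0.76 in WT and -1.13 in KO (adjusted p = 0.00331 and 8.81e-05), and for Kcnip2 -0.58 and -0.77 (adjusted p = 0.0156 and 0.000462). The Kcnip2 call in WT was lost without any 1 of OGD_WT replicate 1 or N_WT replicate 4 (adjusted p up to 0.0679). Kcnip4 shares 24.8 kb of its span, introns included, with a gene on the other strand. Kcnh1 shares 13.4 kb, Kcnab2 1.17 kb and Kcnh7 0.696 kb in the same way. Their reads may be less certain, but overlap of exons was not examined and an effect on the counts was not tested. Kcnip1 and Kcnip3 were not called, at 0.23 in WT and 0.28 in KO and -0.20 in WT and -0.21 in KO. Kcnab1, a partner of Kv1 pores, fell by 0.65 in WT (adjusted p = 0.00671) and 0.54 in KO (adjusted p = 0.0242, and 0.0647 with the culture block), where the call was lost without any 1 of OGD_KO replicate 1, 3 or N_KO replicate 1, 3, 5 (adjusted p up to 0.0624). Kcnab2 was -0.17 in WT and -0.17 in KO and Kcnab3 -0.20 in WT and 0.31 in KO, neither called.

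The order of levels differed between treatments. In CPM per kb of exon, on the authors' scaling, Kcnj3 was first in N_WT at 24.6 ± 5.9, followed by Kcnq5 at 19.4 ± 2.5 and Kcnd2 at 14.3 ± 3.5 (SD, n = 5). The ranges of Kcnj3 and Kcnq5 overlapped in N_WT, and so did those of Kcnq5 and Kcnd2. In OGD_WT, Kcnd2 was at 13.9 ± 4.1, Kcnd3 at 13.8 ± 1.3 and Kcnc1 at 11.6 ± 1.7, while Kcnj3 was at 8.17 ± 2.8 and Kcnq5 at 5.48 ± 1.4, places 7 and 16 of 62. In KO, Kcnj3 and Kcnq5 went from places 1 and 2 to 6 and 14, and Kcnd3 from place 8 to 1. Together, the Kv1 to Kv4 pore genes made up 30.3% ± 1.28 of the summed level of all members in N_WT and 37.4% ± 2.14 in OGD_WT, and 31.1% ± 2.15 and 37.3% ± 1.23 in KO (SD, n = 5 each). This is a larger share of a smaller sum. The summed level of these genes was itself 83.5 ± 2.63 in N_WT and 77.4 ± 6.25 in OGD_WT, and 83.0 ± 1.77 in N_KO and 73.8 ± 3.12 in OGD_KO. Neither gene span, exon length nor mean level ordered the members by their change: Spearman's rho over 62 members was -0.01, 0.11 and 0.12 in WT and 0.01, 0.07 and 0.04 in KO, a description across genes, which are not independent replicates.

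**Figure D3:**
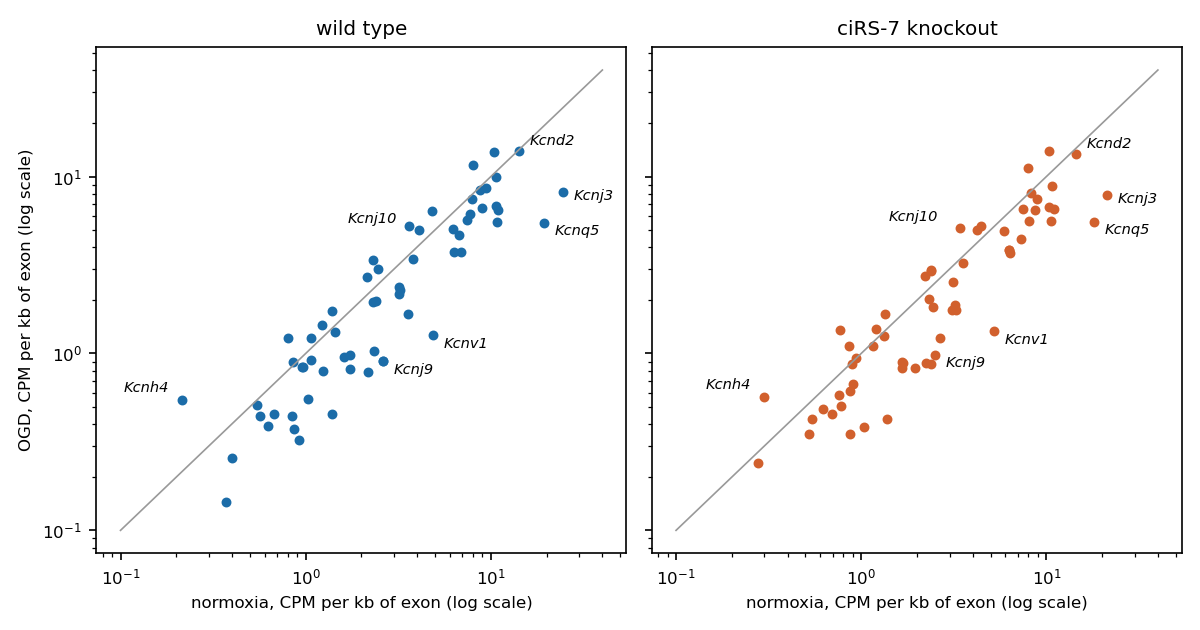
Mean level of each member in normoxia (horizontal axis) and under OGD (vertical axis), both in CPM per kb of exon on a log scale, for wild type and knockout; the line marks equal levels. Kcnj3, Kcnq5 and Kcnv1 lie well below the line, and Kcnh4 and Kcnj10 above it.

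Whether loss of ciRS-7 changes potassium channel expression was examined in normoxia and under OGD separately. In normoxia, 0 of 62 members were called by limma between N_KO and N_WT, where 0.0353% of all genes were, and 2 had an unadjusted p under 0.05, where 1.81% of all genes had. Under OGD, 0 of 62 were called between OGD_KO and OGD_WT, where 0.0282% of all genes were, and 0 had an unadjusted p under 0.05, where 1.78% of all genes had. The genotypes did not overlap for 0 of 62 members, where 0.345% of all genes did not. With limma voom on recovered reads the counts were 0 and 0 as well. Differences ran from -0.25 to 0.42 in normoxia and from -0.30 to 0.35 under OGD, and the 95% intervals of all 62 lay within 1 on either side of 0 in both. The median half-width of an interval was 0.34 in normoxia and 0.41 under OGD, without adjustment for the number of genes. Changes below about that size in a single member could not be told from 0, and larger ones could also go uncalled. The shares of 1.81% and 1.78% are below what the threshold of 0.05 gives with no difference, so these p-values may be too large. The 0 calls therefore do not show equal levels.

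The smallest p in normoxia belonged to Kcnh1, at 3.35, 3.31, 3.29, 3.56 and 3.23 in N_WT and 3.87, 3.66, 3.58, 4.37 and 3.37 in N_KO, a difference of 0.42 (SE 0.17, unadjusted p = 0.0209 and adjusted p = 1 by limma). Kcnn1 followed at 1.34, 1.02, 1.33, 1.43 and 0.93 in N_WT and 1.55, 1.5, 1.65, 1.65 and 1.58 in N_KO, with all KO libraries above all WT libraries, a difference of 0.38 (SE 0.16, unadjusted p = 0.0342); it was the one member whose genotypes did not overlap, where 0.325% of all genes did not. Kcnh4 came next, at 0.39 (unadjusted p = 0.0816). Under OGD the smallest p was again that of Kcnn1, at 0.35 (SE 0.19, unadjusted p = 0.0881), followed by Kcnj4 at -0.30 (unadjusted p = 0.143) and Kcnab3 at 0.25 (unadjusted p = 0.151). For Kcnq5 the genotype difference was -0.08 in normoxia (95% interval -0.39 to 0.22) and 0.07 under OGD (-0.32 to 0.47). For Kcnv1 it was 0.12 (-0.19 to 0.43) and 0.10 (-0.40 to 0.59).

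**Figure D4:**
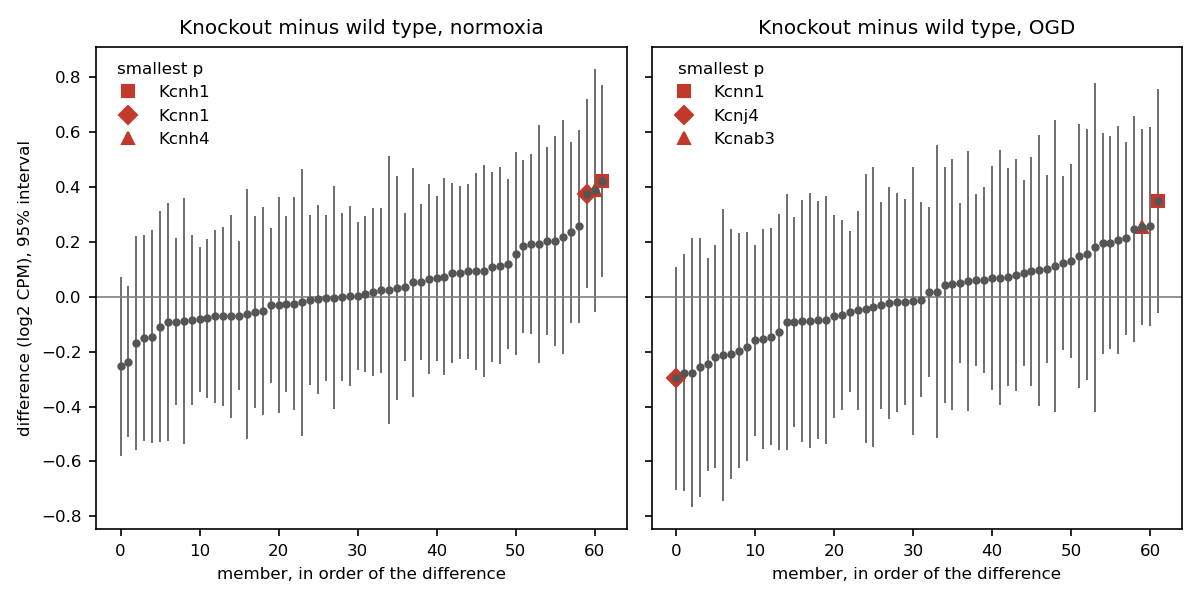
Knockout minus wild type in log2 CPM (vertical axis) for the 62 members of each table, in order of the difference (horizontal axis), in normoxia and under OGD; bars are 95% intervals and red symbols mark the 3 smallest p-values. The intervals of Kcnh1 and Kcnn1 in normoxia exclude 0, the others cross it, and none reaches beyond 1 on either side.

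The responses of the genotypes to OGD rest on different libraries. Over the 61 members listed in both OGD tables, 31 were called in both, 27 lower and 4 higher, 4 in WT alone, 5 in KO alone and 21 in neither. That is 50.8% called in both, where 35.9% of the 14097 genes in both tables were. The sign was the same for 57, or 93.4%, near the 90.6% of all these genes. Across the 61 members Pearson's r of the differences was 0.96 and Spearman's rho 0.96, against 0.94 and 0.94 over those 14097 genes. Being called in one genotype alone does not by itself show a difference between them. In the test of genotype by treatment over 61 members, 0 were called by limma with the culture as a block or without. With the block 1 had an unadjusted p under 0.05 and 1 without, where 0.731% and 1.15% of all genes had. That member was Kcnab3, whose response was -0.20 in WT and 0.31 in KO (interaction 0.54, SE 0.25, unadjusted p = 0.0353, adjusted p = 1). Kcnj10 followed at 0.31 (SE 0.24, unadjusted p = 0.202) and Kcnip4 at -0.40 (SE 0.31, unadjusted p = 0.207). Both shares of all genes are below what the threshold of 0.05 gives with no difference, so these p-values may be too large. With SEs of 0.22 (Kcnj9) to 0.40 (Kcnk12), sizeable differences in response could go uncalled, and 0 calls do not show equal responses.

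Genes that work with these channels were followed through lists written with earlier results of these data known. Of 13 listed partner genes outside the family, 4 were called lower in WT and 5 in KO and 0 higher, with medians of -0.21 and -0.22. Over all genes 22.8% were called lower and 21.6% higher in WT, and 19.9% and 21% in KO. Lrrc55, an auxiliary subunit of the BK channel, fell by 2.17 in WT and 1.95 in KO (adjusted p = 2.7e-07 and 3.44e-08). Lgi1, a secreted regulator of Kv1 channels, fell by 0.70 and 0.50, and Ank2, an ankyrin scaffold, by 0.53 and 0.59.

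Of 14 genes for HCN channels and potassium transport, 8 were called lower in WT and 9 in KO and 1 higher in each, with medians of -0.52 and -0.43. Hcn2, a pacemaker channel, fell by 0.82 in WT, and by 0.83 in KO, while Slc12a5, the neuronal potassium and chloride cotransporter KCC2, fell by 0.75 in WT and 0.85 in KO. Atp1b1, a sodium pump subunit, fell by 0.60 and 0.87. The one rise was Slc12a7, another cotransporter of that family, by 0.78 and 0.88. Of the voltage-gated sodium and calcium channel pores, 2 of 13 were called higher and 2 lower in WT, and 2 of 14 higher and 1 lower in KO, each a smaller share than over all genes, with medians of -0.19 and -0.25. Scn2a fell by 1.07 and 1.11, Scn1a rose by 0.65 and 0.56, Cacna1e fell by 0.72 in WT and was -0.48 in KO (adjusted p = 0.176), and Cacna1g rose by 0.43 and 0.40. The rises in these lists are on the authors' scaling, under which the median of all genes is near 0.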

How the data were processed

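Total RNA was sequenced in 20 libraries with a stranded kit, per the labels' protocols, and mm10 is named in the submitters' processing notes. The aligner and counter are not given in the sources used here. The authors deposited 4 tables of log2 CPM, 1 per pair of groups, each scaled and filtered on its own, so tests stay within a table. In each gene and group the deposited extremes equal the 10th and 90th percentiles, as found from the values and not stated. This clipping was undone (weights 0.6 and 0.4 of the extreme and its neighbour), after which at least 99.9% of values up to 500 reads were whole within 0.05 reads, against 45.3% to 92.8% before. Differences were tested with limma 3.58.1 in R 4.3.3 (trended variance, Benjamini-Hochberg adjustment over all genes of the table, 5 against 5 libraries), and SE and 95% intervals are limma's. The test of genotype by treatment used jointly scaled reads of 13688 genes with the culture as a block (consensus correlation -0.17). The recovery and the limma fit were also run on simulated libraries, independent and without batches, clipped by the rule that the recovery undoes. Such data test neither that rule nor the p-values under the differences in spread between batches. Levels between genes are per kb of exon (GENCODE vM21).

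The pairing comes from the labels, which give an N and an OGD library of 1 number the same batch. Their deviations from group means correlated at -0.67 to 0.08, and the block is given where it changes a call. Alternatives were the deposited clipped values, the replicate block, median-ratio scaling, a prior count of 0.5 in place of 2, voom, a mean of at least 1, each library left out, batch as a term between genotypes, and subsets of batches; scaling to total reads and the subset of batches 3.1 and 3.3 were chosen after seeing the data. Named by rule were the 12 largest called falls and rises with a mean of at least 1 in each OGD comparison, the 3 smallest p-values in the others, further genes of set interest, and the 3 largest called changes of each partner list; other members are given by role. A few genes are not reported here, though counts over all members include them. Members and lists were chosen with earlier results of these data known.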

Additional observations from a re-analysis of the deposited data

Results flagged for a closer look

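In 4 of 106 groups of 5 libraries, taken over 27 members, 1 library lay so far from the other four that its gap to the nearest exceeded 0.71 of the group's range. Chance gives about 1 in 20 groups, here 5.3. In N_WT, Kcnk10 was at 6.45 in replicate 4, the others being at 5.67 to 5.85. In N_KO, Kcng1 was at 2.98 in replicate 4, against 3.72 to 3.81. The other two were in OGD_KO replicate 5, of 7496145 recovered reads: Kcnd2 at 5.19 against 6.11 to 6.42 and Kcnj11 at 0.14 against 0.39 to 0.48. For 0 members reported here did all cultures of WT move one way and all of KO the other.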

How the results depend on the processing

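Member calls under OGD stayed within 1.5 times the reported 36 and 36 under the clipped values (40 in WT and 42 in KO), the block (35 and 28), median-ratio scaling (35 and 36), a prior count of 0.5 (36 and 34), voom (36 and 35), a mean of at least 1 (30 and 35) and total-read scaling (42 and 39). Leaving out 1 library gave 29 to 36 in WT and 27 to 35 in KO. With batches 3.1 to 3.3 alone there were 28 and 17, and with 3.1 and 3.3 alone 15 and 17; fewer cultures enter those fits. With the replicate block, WT lost Kcnd1 and Kcnn1 and gained Kcna2 (adjusted p = 0.0493, limma), KO lost Kcnk1, Kcnab1, Kcnd1, Kcna2, Kcnn1, Kcnn3 and Kcnc1, and it changed no other call of a member that the text names. Between genotypes and for the interaction the count was 0 under every alternative run. Sign changes were limited to members that were not called: batches 3.1, 3.2 and 3.3 only gave Kcng3 in WT -0.051, Kcnk2 in WT 0.022, Kcnf1 in KO -0.068, Kcnt1 in KO 0.19, Kcnu1 in KO 0.15; total-read scaling gave Kcng3 in WT -0.20, Kcnh5 in WT -0.0095, Kcnip1 in WT -0.038, Kcnt1 in WT -0.12, Kcna3 in KO -0.054, Kcnf1 in KO -0.081, Kcnh5 in KO -0.064, Kcnh8 in KO -0.22; batches 3.1 and 3.3 only gave Kcng3 in WT -0.14, Kcnk2 in WT 0.035, Kcnmb4 in WT 0.033, Kcnf1 in KO -0.068, Kcnt1 in KO 0.19, Kcnu1 in KO 0.15. Leaving out 1 library changed the sign of others over these ranges: Kcna4 in WT -0.18 to 0.042, Kcnab2 in KO -0.26 to 0.041, Kcnd2 in KO -0.24 to 0.067, Kcnd2 in WT -0.20 to 0.090, Kcng3 in KO -0.14 to 0.022, Kcng3 in WT -0.022 to 0.14, Kcnh8 in KO -0.069 to 0.19, Kcnk2 in KO -0.19 to 0.072, Kcnk2 in WT -0.17 to 0.033, Kcnt1 in KO -0.19 to 0.041, Kcnt1 in WT -0.0057 to 0.23. The cause was not tested. Depth limits the 8 members with a library under 10 reads, Kcna5, Kcnh4, Kcnj11, Kcnj12, Kcnk12, Kcnmb2, Kcnn1 and Kcns1.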
